A study of Mus musculus with 2 samples.

Results

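The nuclear genes for subunits of respiratory complexes I, II and III and of the ATP synthase, complex V, were followed across the cell classes of the mouse islet. Members were chosen by gene symbol alone, as the numbered Ndufa, Ndufb, Ndufc, Ndufs and Ndufv genes (without Ndufa4, now counted with complex IV) with Ndufab1, the 4 Sdh genes, and all symbols that begin with Uqcr or Atp5. They numbered 65 of the 31053 genes counted, of which 36 belong to complex I, 4 to complex II, 8 to complex III and 17 to complex V. Some subunits carry other symbols and were not caught, among them Cyc1, the cytochrome c1 of complex III.

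Islet cells came from wild type (WT) mice and from mice without Npc1 (Npc1-/-, the library labelled KO), which lack the lysosomal cholesterol transporter NPC1 in all tissues. Per the study's methods the knockout was kept on the C57BL/6J background and bred from heterozygous parents. All mice were 2 weeks old and female, and each genotype had 1 droplet library made from the pooled islets of 3 mice, so the mice of a pool cannot be told apart. With 1 library a genotype there is no replicate check on any difference between genotypes, no p-value is given for one, and the intervals below cover counting error only.

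Complex I passes electrons from NADH to ubiquinone, complex II does the same from succinate, and complex III hands them on to cytochrome c. Complexes I and III pump protons as they do so, and complex V lets the protons back to make ATP. In the β cell this ATP closes potassium channels and so couples glucose to insulin secretion. Complexes I, III and V are each built from nuclear and mitochondrially encoded subunits, whereas every subunit of complex II is nuclear.

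After the cell filters, 4628 of 8569 WT barcodes and 4269 of 7646 Npc1-/- barcodes were kept, and 3 of the kept barcodes occurred in both libraries. Cells were classed by the hormone with most of their UMIs, the molecules counted by their unique molecular identifiers. Insulin-led cells numbered 1833 in WT and 1826 in Npc1-/-, Gcg-led cells 1048 and 857, Sst-led cells 189 and 141, and PP-led cells (Ppy with Pyy) 411 and 442. Endothelial cells numbered 426 and 422 and stellate cells 246 and 267. All 8 endothelial and all 8 stellate markers were highest in their own class. These 2 classes were called by the same markers, so that result was largely given by the rule. All 8 β cell markers were highest in insulin-led cells, 7 of 8 α cell markers in Gcg-led cells and 5 of 6 δ cell markers in Sst-led cells. Only 1 of 4 PP cell markers was highest in PP-led cells, so these are called by their leading hormone and not as PP cells. Of the Sst-led cells 107 of 189 in WT and 101 of 141 in Npc1-/- had a second hormone at 10% or more of their UMIs. Median depth was 30417 and 30094 UMIs in insulin-led cells against 7596.5 and 9235 in endothelial and 6493.5 and 6482 in stellate cells. Npc1 had 319 UMIs in WT and 143 in Npc1-/- insulin-led cells and fewer in Npc1-/- than in WT in each class.

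The members lie on 19 chromosomes (GRCm38, positions by gene identifier in GENCODE M21), 2 of them on X, and few are neighbours. Ndufs8 and Ndufv1, both core subunits of complex I, lie 94610 bases apart on chromosome 19. Atp5d of complex V, Ndufs7 of complex I and Uqcr11 of complex III follow each other on chromosome 10, with gaps of 103303 and 146203 bases.

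Many of these genes carry the letters bound by nuclear respiratory factor 1 (NRF1), a transcription factor known for its sites in respiratory chain promoters. RefSeq promoter windows (GRCm38.p6, 250 bases before to 50 after the gene start) were matched by symbol for 55 of the 65 members. The NRF1 letters, a run of 10 bases in which base 6 may be any base, were searched on both strands and stood in 16 of these 55 (29.1%), against 5.19% of all 27025 genes with a window and 15.3% of the 3305 genes with a window that reached 20 CPM (counts scaled to 1000000 UMIs) in insulin-led cells. The letters of YY1, a factor also known from such promoters, stood in 4 members (7.27%, against 0.755% of all genes and 2.27% of those at 20 CPM), the ERR letters TCAAGGTCA in 2 (3.64%, against 0.466% and 0.212%) and the ETS letters ACCGGAAGT in 1 (1.82%, against 1.21% and 2.78%). For the ETS letters the share of the members was thus above that of all genes but below that of genes at 20 CPM. A match is a description of the letters and does not show binding. 5 stretches are printed because they show the NRF1 letters in a member of each of complexes I, II and V. Sequence is given 5′ to 3′ on the gene's strand and the capitals mark the match.
Sdha promoter, chr13:74350256-74350325, minus strand, match starting 55 bases before the gene start: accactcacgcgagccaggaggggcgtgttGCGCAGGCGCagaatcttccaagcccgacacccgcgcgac
Sdhd promoter, chr9:50603889-50603958, minus strand, match starting 79 bases before the gene start: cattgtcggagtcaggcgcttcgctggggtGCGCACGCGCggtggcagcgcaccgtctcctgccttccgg
Ndufs5 promoter, chr4:123718245-123718314, minus strand, match starting 98 bases before the gene start: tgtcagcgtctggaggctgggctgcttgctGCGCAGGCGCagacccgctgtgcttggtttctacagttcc
Ndufa11 promoter, chr17:56717672-56717741, plus strand, match starting 60 bases before the gene start: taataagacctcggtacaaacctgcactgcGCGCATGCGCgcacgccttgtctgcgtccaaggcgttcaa
Atp5g2 promoter, chr15:102671050-102671119, minus strand, match starting 42 bases before the gene start: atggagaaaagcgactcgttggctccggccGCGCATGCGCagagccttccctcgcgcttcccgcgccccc

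Members with and without these letters lay close together in Npc1-/- insulin-led cells. Relative to the median gene, as defined below, the median member stood at a log2 ratio of -0.05 among the 16 with the NRF1 letters and -0.07 among the 38 without them that passed the filter.

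With hormone genes left out of the totals, the summed level of the members was close in the 4 hormone-led classes. It was lower in stellate cells and lowest in endothelial cells. With all UMIs as the total, insulin-led cells would instead have the lowest share of any class. Levels here are CPM of the UMIs of a class and library, with 8 hormone genes left out because hormones took 57.8% and 55.8% of the UMIs of insulin-led cells but 2.22% and 1.21% of those of endothelial cells. The members together took 2.19% of these UMIs in WT and 2.10% in Npc1-/- insulin-led cells. The share was 2.08% and 2.19% in Gcg-led, 1.99% and 2.03% in Sst-led, 2.06% and 2.12% in PP-led, 1.38% and 1.37% in endothelial and 1.88% and 1.85% in stellate cells. The share was thus lower in Npc1-/- than in WT in insulin-led and stellate cells and higher in Gcg-led, Sst-led and PP-led cells. In endothelial cells the shares of the libraries were nearly equal. The complexes did not keep 1 ratio across classes. Complex I summed to 10121 CPM in WT and 9847 CPM in Npc1-/- insulin-led cells and was 1.70 and 1.62 times its endothelial level. Complex V summed to 8578 and 8089 CPM in insulin-led cells, but was highest in Gcg-led cells with 8865 and 9229 CPM. Complex III summed to 2545 and 2434 CPM in insulin-led and to 2417 and 2389 CPM in stellate cells, a ratio of 1.05 and 1.02. Complex II, with 690 and 660 CPM in insulin-led cells, had 462 and 444 CPM in endothelial cells.

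**Figure D1:**
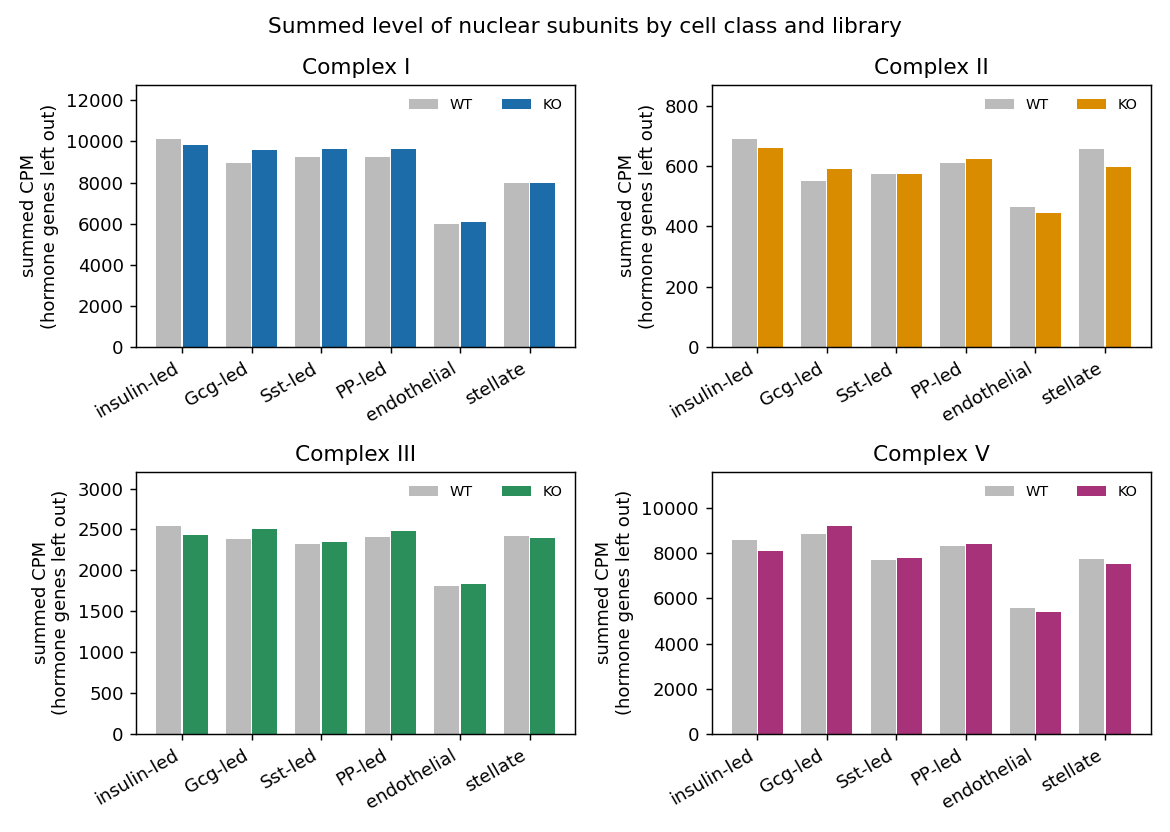
Summed level of the nuclear subunits of each complex (CPM with hormone genes left out) by cell class, with grey bars for the WT and coloured bars for the Npc1-/- library, 1 library each. Endothelial cells are lowest for all 4 complexes, and complex V is highest in Gcg-led cells.

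Differences between classes were tested on the class sums of the 2 libraries with edgeR's quasi-likelihood test and Benjamini-Hochberg adjustment over 14075 genes, with the library as a block. With the library blocked, the p-values measure how far class differences vary between these 2 libraries, which also differ in genotype. 64 members were tested, since the second gene listed as Atp5o (ENSMUSG00000116933) had 0 UMIs in every class.

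Most subunits were lower in endothelial than in insulin-led cells. Of the 64 members, 47 were lower, 6 higher and 11 did not pass, where 38.6% of all genes were lower and 35.7% higher. The median member difference was -0.37 on the log2 scale against -0.06 for all genes tested. In both libraries 51 members were lower, a count that was not taken over all genes. By complex, 27 of 36 members of complex I, 3 of 4 of complex II, 5 of 8 of complex III and 12 of 16 of complex V were lower. Without the TMM factor, which sets the scale between classes, the higher members fell to 2, and Ndufs8 turned to -0.03. Insulin transcripts took 1.65% and 0.93% of the UMIs of endothelial and 2.31% and 1.57% of those of stellate cells, and the part of RNA from other cells in these differences was not tested.

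Accessory subunits of complex I were among the widest gaps. Ndufv3, an accessory subunit at the NADH-binding end of complex I, had 311.9 CPM in WT and 342.5 CPM in Npc1-/- insulin-led cells but 93.4 and 92.8 CPM in endothelial cells. Its difference was -1.54 on the log2 scale (edgeR adjusted p = 1.1e-14). Ndufa1, an accessory subunit of the membrane arm encoded on X, had 323.4 and 357.0 CPM in insulin-led cells against 103.2 and 121.9 CPM in endothelial cells. Its difference was -1.33 (edgeR adjusted p = 8.4e-13). Both genes were also low in stellate cells, at 115.9 and 123.5 CPM for Ndufv3 and 125.6 and 172.7 CPM for Ndufa1, so no stromal library overlapped a hormone-led one for either gene. Atp5s, known as a coupling factor and not as a subunit of the enzyme, was second lowest at -1.47 (edgeR adjusted p = 4.2e-06), but rested on 23 and 18 UMIs in endothelial cells.

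The exceptions went up. Ndufa8, an accessory subunit on the intermembrane side of complex I, had 246.3 and 242.6 CPM in insulin-led and 352.1 and 363.3 CPM in endothelial cells, a difference of 0.82 (edgeR adjusted p = 4.9e-10). Ndufa3 rose by 0.63 (edgeR adjusted p = 5.9e-07) from 69.3 and 79.9 to 92.2 and 98.8 CPM. Ndufs8, an iron-sulfur core subunit, rose by 0.24 (edgeR adjusted p = 0.0069), on levels of 159.8 and 153.9 against 155.0 and 152.9 CPM that overlapped. For Ndufs8 the rise therefore rests on the TMM factor.

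In stellate cells single members differed in both directions, though not more often than genes in general. Against insulin-led cells 16 members were higher and 21 lower, where 31.4% of all genes were higher and 34.9% lower. Atp5b, the catalytic β subunit of the F1 head, had 853.1 and 644.6 CPM in insulin-led and 1142 and 996 CPM in stellate cells, a difference of 0.66 (edgeR adjusted p = 1.5e-08). Atp5o (ENSMUSG00000022956), part of the stalk that holds the F1 head, rose by 0.79 (edgeR adjusted p = 8.2e-10), and Uqcrh, the hinge protein of complex III, by 0.53 (edgeR adjusted p = 1.0e-07). Atp5s (-1.33), Ndufv3 (-1.31) and Ndufa1 (-1.06) were the lowest, with edgeR adjusted p of 0.00050, 2.0e-12 and 3.5e-10. The split depended on the cells and on the scaling, with 4 higher and 32 lower under the stricter cell filter and 9 higher and 34 lower without the TMM factor.

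Gcg-led cells were close to insulin-led cells in summed level without hormone genes, and single members differed in both directions. Of 64 members 17 were higher and 12 lower, where 24.1% of all genes were higher and 24.5% lower. Both shares were thus near or under those of all genes. Without the TMM factor 21 members were lower. Complex V leaned up, with 8 of 16 members higher and 1 lower, while complex II had 0 higher and 2 lower in edgeR's test (all genes as above), and its other 2 members, Sdhb and Sdhd, had unadjusted p of 0.94 and 0.80. Atp5e, the ε subunit of the F1 head, had 636.4 and 709.3 CPM in insulin-led and 903.2 and 996.2 CPM in Gcg-led cells, a difference of 0.57 (edgeR adjusted p = 1.6e-08). Ndufa6 rose by 0.54 (edgeR adjusted p = 4.2e-07) from 261.7 and 291.7 to 362.8 and 398.1 CPM. In the other direction Ndufb8, a subunit of the membrane arm, had 588.6 and 541.8 CPM in insulin-led but 328.7 and 360.7 CPM in Gcg-led cells, a difference of -0.64 (edgeR adjusted p = 7.1e-08). Ndufc2 stood at -0.41 (edgeR adjusted p = 5.2e-05), and Sdha, the flavoprotein that oxidises succinate, at -0.49 (edgeR adjusted p = 6.7e-06).

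Ndufb8 was high in insulin-led cells against each other class. Its level was 347.1 and 364.1 CPM in Sst-led, 337.7 and 366.3 CPM in PP-led, 230.0 and 236.1 CPM in endothelial and 289.5 and 284.7 CPM in stellate cells, so that both insulin-led libraries lay above every other value. Against insulin-led cells the difference was -0.76 in Sst-led cells (edgeR adjusted p = 2.9e-08) and -0.71 in PP-led cells (edgeR adjusted p = 2.6e-08). Sst-led cells had 25 members lower and 1 higher, where 18.8% of all genes were lower and 16.2% higher, and DESeq2 called 12 lower. The higher member was Ndufa6 at 0.30 (edgeR adjusted p = 0.0022). Uqcrq, a small subunit of complex III, was lower by -0.68 in Sst-led cells (edgeR adjusted p = 1.8e-07) and by -0.45 in PP-led cells (edgeR adjusted p = 1.5e-05), and Ndufb9 by -0.51 in Sst-led cells (edgeR adjusted p = 6.8e-06). PP-led cells had 12 members lower and 3 higher, where 20.1% of all genes were lower and 19.3% higher. The higher ones were Ndufa6 (0.39), Uqcrh (0.24) and Atp5g2 (0.20), with edgeR adjusted p of 5.9e-05, 0.0033 and 0.0079, and Ndufv3 stood at -0.47 (edgeR adjusted p = 1.1e-05).

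Over all hormone-led against the 2 stromal classes, 35 members were higher and 13 lower, where 39.4% of all genes were higher and 35.9% lower. Complex I carried most of this, with 23 of 36 members higher and 4 lower. Ndufa1 (1.23), Ndufv3 (1.08) and Atp5s (1.57) led it, with edgeR adjusted p of 2.2e-15, 7.8e-15 and 5.8e-08. The lowest were Ndufs8 (-0.49), Ndufa3 (-0.49) and Ndufa8 (-0.45), with edgeR adjusted p of 1.1e-08, 2.2e-07 and 1.1e-08.

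**Figure D2:**
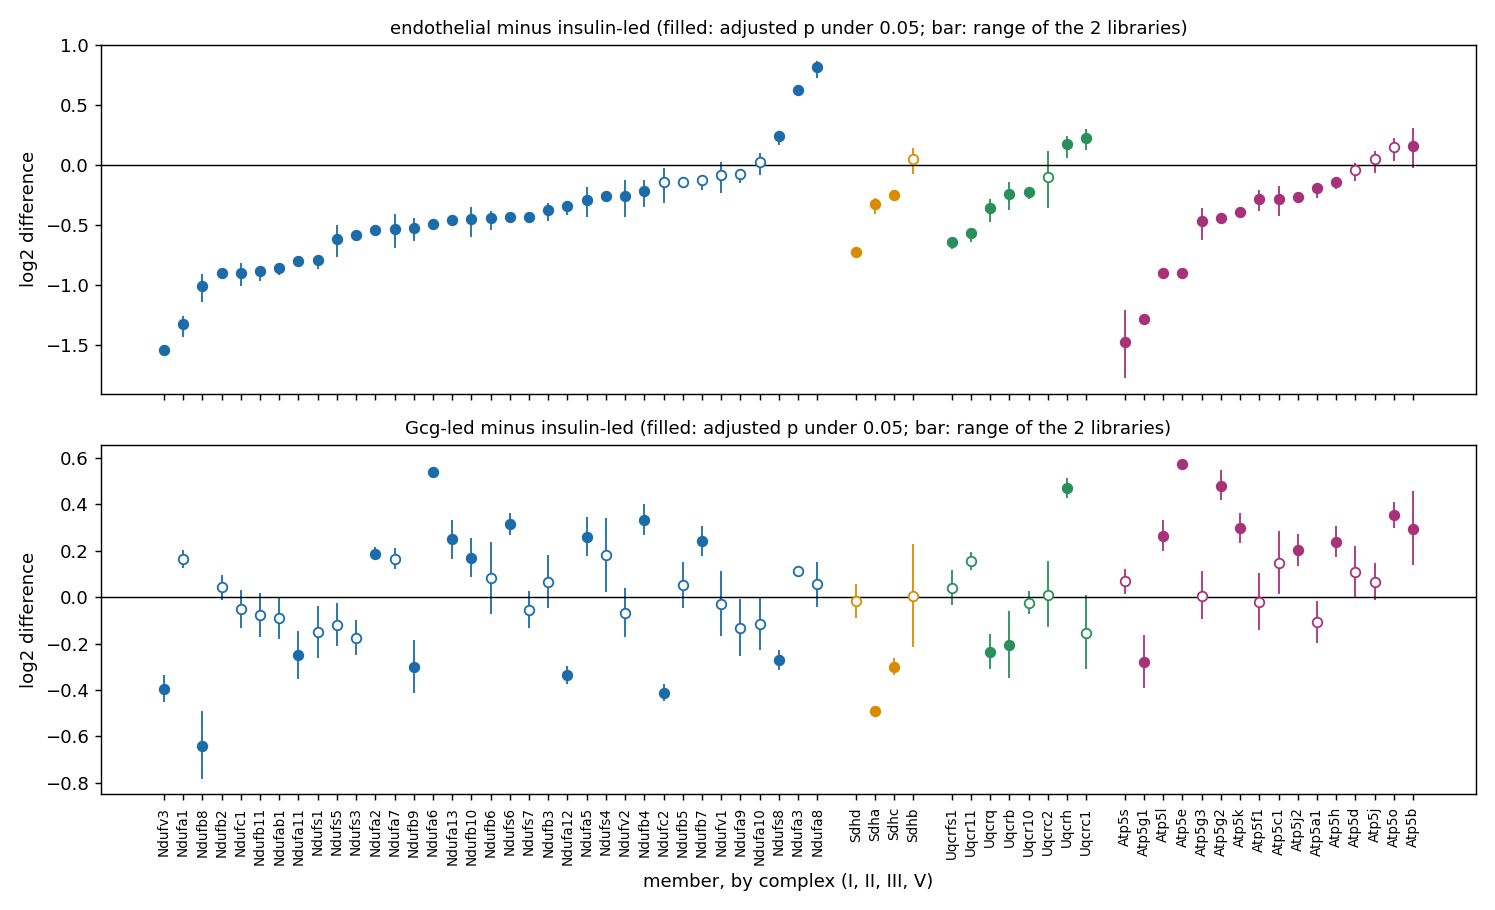
Log2 difference of each member between endothelial and insulin-led cells (top) and between Gcg-led and insulin-led cells (bottom), in the same order of members, coloured by complex. Points are edgeR's estimate, filled where the adjusted p was under 0.05, and bars span the values of the 2 libraries. Of the 63 members drawn 46 are lower in endothelial cells, while the Gcg-led differences fall on both sides with 17 higher and 12 lower.

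The c subunit of the membrane ring of complex V is made from 3 genes, Atp5g1, Atp5g2 and Atp5g3, whose proteins differ in the part that directs import and share the mature subunit. The last 228 coding bases of the annotated transcripts (76 codons with the stop) encode the same residues in the 3 genes, while 34 bases of Atp5g2 and 46 of Atp5g3 differ from Atp5g1. The last 60 bases are printed to show how the genes can be told apart by their transcripts alone, with capitals at bases that differ from Atp5g1 (8 in Atp5g2 and 12 in Atp5g3).
Atp5g1 coding end: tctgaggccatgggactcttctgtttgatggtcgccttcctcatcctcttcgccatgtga
Atp5g2 coding end: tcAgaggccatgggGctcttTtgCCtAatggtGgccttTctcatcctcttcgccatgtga
Atp5g3 coding end: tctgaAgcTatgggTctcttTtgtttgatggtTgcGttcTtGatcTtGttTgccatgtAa

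The share of the 3 genes differed by class more than by genotype. Of their summed UMIs, with no division by length, Atp5g1 gave 39.6% in WT and 37.9% in Npc1-/- insulin-led cells, 29.4% and 29.1% in Gcg-led, 33.3% and 31.9% in Sst-led, 33.9% and 33.1% in PP-led, 27.4% and 24.99% in endothelial and 31.7% and 27.98% in stellate cells. Atp5g2 took 39.5% and 40.0% in insulin-led and 51.5% and 50.3% in Gcg-led cells. Both insulin-led libraries thus held a higher share of Atp5g1 than any other class. In edgeR's test Atp5g1 was lower than in insulin-led cells by -0.28 in Gcg-led, -0.48 in Sst-led, -1.28 in endothelial and -0.81 in stellate cells (edgeR adjusted p = 0.0013, 8.1e-06, 4.5e-14 and 6.2e-10), whereas Atp5g2 rose by 0.48 in Gcg-led cells (edgeR adjusted p = 2.8e-07). In every class the share of Atp5g3 was higher in Npc1-/- than in WT. It was 27.8% against 23.4% in endothelial and 33.0% against 29.3% in stellate cells. In the hormone-led classes it was 22.1% against 20.9% in insulin-led and 20.6% against 19.1% in Gcg-led cells. Sst-led cells had 23.7% against 21.9% and PP-led cells 22.0% against 20.9%. Reads that fit more than 1 of these genes or a processed copy could be lost from the counts, which was not tested.

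Between genotypes, subunits of the same complex stood apart in insulin-led cells. Values are log2 ratios of Npc1-/- over WT in CPM of all UMIs, relative to the median of all genes that reached 20 CPM in WT or Npc1-/-, with 0.5 counts added. This median gene itself stood at 0.08. The CPM limits of the genotype ratios also count all UMIs. The CPM levels printed for single members, here and below, leave out the hormone genes as before, so they do not give these ratios directly. 63 members reached 20 CPM in every class, the exceptions being Atp5s and the second Atp5o gene. In insulin-led cells 6 of the 63 lay at least 1.2-fold below the median gene and 0 at least 1.2-fold above it, where 7.79% of the 4145 genes tested lay below and 10.8% above by that much. The share of members below by that much was thus near that of all genes. Atp5b, Uqcrc1, Uqcrc2, Ndufv1 and Sdhb were among these 6 members. Of these 5 all but Sdhb are core or F1 subunits, and Sdhb is the iron-sulfur subunit of complex II.

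Taken without a limit, 43 members lay below and 20 above the median gene, where 50% of all genes lie below by construction, and the median member stood at -0.08. These counts move with the centre. Among genes with at least 100 CPM, 27 of 41 members and 65.8% of all 705 genes lay below the same centre, and 2 members and 13.3% of all genes lay at least 1.2-fold below it. Centred on genes of like transcript length 34 members lay below, and with neither centring nor removal of hormones from the totals 29 did. A centre shared by all genes of a class leaves the differences between its members as they are, whereas the centre by length shifts them.

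In complex I the core subunits lay below the median gene and several accessory subunits above it. Ndufv1, which binds NADH and carries the flavin, had 176.9 CPM in WT and 143.5 CPM in Npc1-/- insulin-led cells (4091 and 3435 UMIs), a relative log2 ratio of -0.32 (-0.38 to -0.25). All 7 core subunits lay below the median gene, among which Ndufs1, Ndufs3, Ndufs7, Ndufs8 and Ndufv2 stood between -0.13 and -0.07. Of the 29 accessory subunits 16 lay below and 13 above, from -0.20 for Ndufa9 to 0.19 for Ndufa3. Ndufa3 went from 69.3 to 79.9 CPM with a ratio of 0.19 (0.10 to 0.29), and Ndufa6 from 261.7 to 291.7 CPM with a ratio of 0.14 (0.09 to 0.19).

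In complex II the 4 subunits split. Sdhb went from 196.3 to 162.3 CPM, a relative log2 ratio of -0.29 (-0.35 to -0.23). Sdha went from 175.1 to 167.2 CPM (-0.08, -0.14 to -0.02) and Sdhc from 121.5 to 116.2 CPM (-0.08, -0.15 to -0.00). Sdhd, which with Sdhc anchors the complex in the membrane, went from 196.8 to 214.1 CPM with a ratio of 0.11 (0.05 to 0.17), so that the anchor subunits lay on opposite sides. The small values of Sdha and Sdhc reached 0 or just above, at 0.0005 and 0.0031, with no centring and hormone genes in the totals.

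In complex III the 2 core proteins were the lowest of the 8 members. Uqcrc1 went from 217.8 to 166.9 CPM, a ratio of -0.40 (-0.46 to -0.34), and Uqcrc2 from 227.3 to 182.4 CPM, a ratio of -0.33 (-0.39 to -0.27). Uqcrfs1, the Rieske iron-sulfur protein, stood at -0.11 (-0.17 to -0.05). The smallest subunits went the other way, with Uqcr11 from 310.7 to 344.1 CPM (0.13, 0.09 to 0.18) and Uqcr10 from 235.1 to 258.4 CPM (0.12, 0.07 to 0.18). Cyc1, the complex III subunit outside the symbol rule, stood at -0.27 (-0.35 to -0.20).

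In complex V the F1 head held both ends of the range. Atp5b went from 853.1 to 644.6 CPM, a ratio of -0.42 (-0.45 to -0.39), and Atp5a1, the α subunit, from 638.4 to 547.6 CPM, a ratio of -0.23 (-0.27 to -0.20). Atp5c1 and Atp5d, the γ and δ subunits, both stood at -0.16, and Atp5e at 0.14 (0.11 to 0.17), going from 636.4 to 709.3 CPM. Atp5e and Atp5b were thereby 0.56 apart in insulin-led cells and 0.23 to 0.36 apart in the other 5 classes. In the c ring Atp5g1 stood at -0.17 (-0.20 to -0.14), Atp5g2 at -0.09 (-0.12 to -0.06) and Atp5g3 at -0.02 (-0.07 to 0.02). Atp5j2, a small membrane subunit, went from 379.0 to 414.5 CPM with a ratio of 0.12 (0.07 to 0.16).

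**Figure D3:**
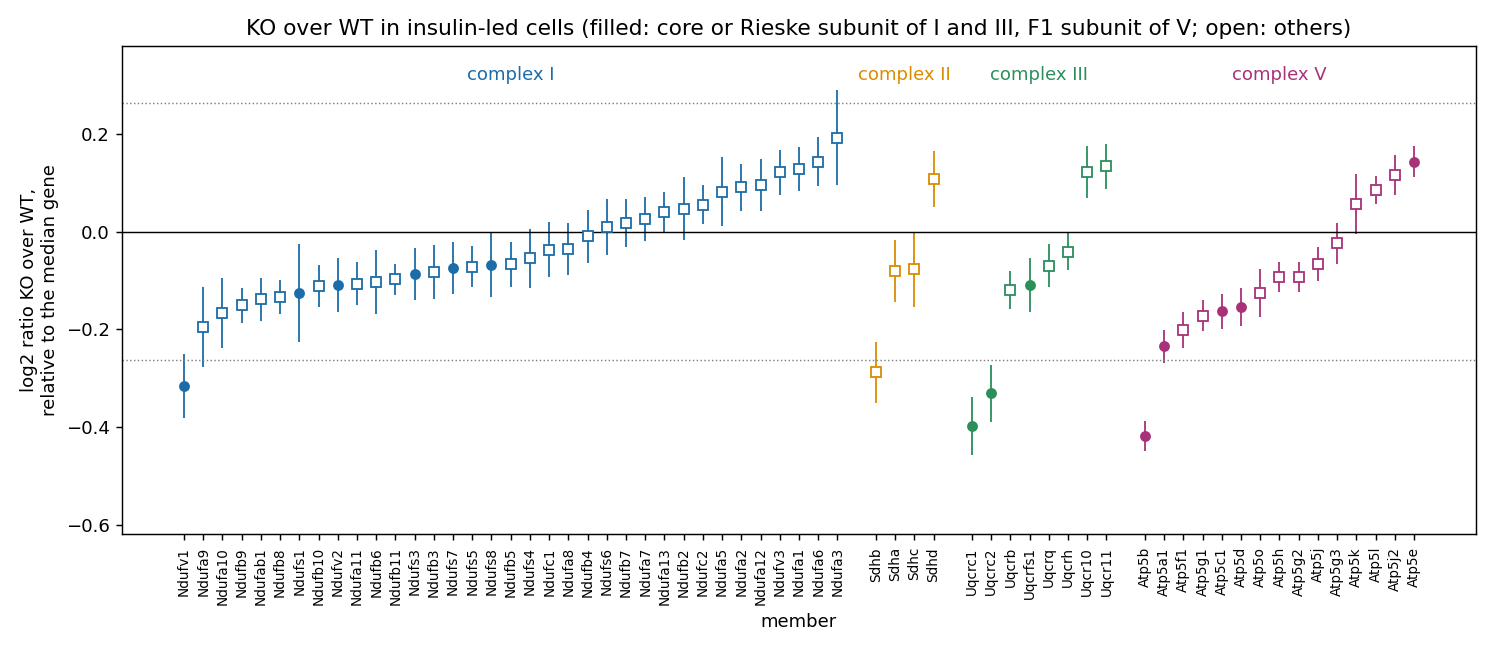
Log2 ratio of Npc1-/- over WT in insulin-led cells, relative to the median gene, for 62 members by complex, with 95% intervals for counting error and dotted lines at 1.2-fold. Filled points are the core and Rieske subunits of complexes I and III and the F1 subunits of complex V, and open points all others. The points run from -0.42 for Atp5b to 0.19 for Ndufa3, and the lowest points of complexes I, III and V are filled, with Atp5e as the filled point above 0.

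The 5 members named as 1.2-fold below kept their side under 14 or 15 alternatives each. Atp5b ran from -0.47 to -0.34, Uqcrc1 from -0.45 to -0.28 and Uqcrc2 from -0.39 to -0.21. Ndufv1 ran from -0.42 to -0.15 and Sdhb from -0.34 to -0.19. Other measures moved between these libraries too. PP-family hormones took 0.96% of the UMIs of WT and 1.69% of those of Npc1-/- insulin-led cells. The count below the median gene was 43 (6 of them by 1.2-fold) in cells with under 1% PP-family UMIs (PP-low) and 40 (4) in cells with more (PP-high). Among all genes 8.55% in PP-low and 7.64% in PP-high cells lay below by 1.2-fold, so the members were near those shares. In PP-high cells Ndufv1 stood at -0.15 (-0.26 to -0.03) and Sdhb at -0.22 (-0.32 to -0.11), neither past 1.2-fold, against -0.42 (-0.50 to -0.33) and -0.33 (-0.41 to -0.25) in PP-low cells. Within a library, PP-high over PP-low cells had 0 members past 1.2-fold and medians of -0.01 in WT and 0.01 in Npc1-/-, where 8.09% of genes in WT and 6.22% in Npc1-/- lay below by that much. For Ndufv1 this ratio of PP-high over PP-low cells was -0.11 (-0.21 to -0.01) in WT and 0.16 (0.07 to 0.26) in Npc1-/-. Leaving out cells rich in the stress genes Fos, Hspa1a, Hspa1b and Dnajb1 also left 43 (6), where 7.85% of all genes lay below by 1.2-fold.

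Transcript length went with the ratios. Across the 63 members Spearman's rho between median annotated transcript length and the relative log2 ratio was -0.65 in insulin-led cells, while across 4111 genes tested it was 0.45. These values are across genes, which share libraries and depth and are not replicates. Of the 31 members of up to 800 bases 15 lay below and 16 above, and of the 32 longer ones 28 lay below and 4 above. Only 1 of the 63 members reached 2850 bases. With all genes cut into 10 groups by length, medians fell from -0.03 in group 1, the shortest, to -0.12 in group 4 and climbed to 0.19 in group 10. Most members lay in groups 1 to 4. Groups 5, 6 and 7, where the medians of all genes climb from -0.08 to 0.04, held 3, 5 and 1 of them. They were Atp5b, Sdhc and Ndufa10, then Ndufb2, Ndufab1, Atp5a1, Ndufs1 and Atp5g1, and last Sdha. Of these Ndufb2 lay above the median gene and the others below. Core subunits had longer transcripts (median 1312 bases in complex I) than accessory subunits (704 bases), so role and length cannot be told apart here.

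**Figure D4:**
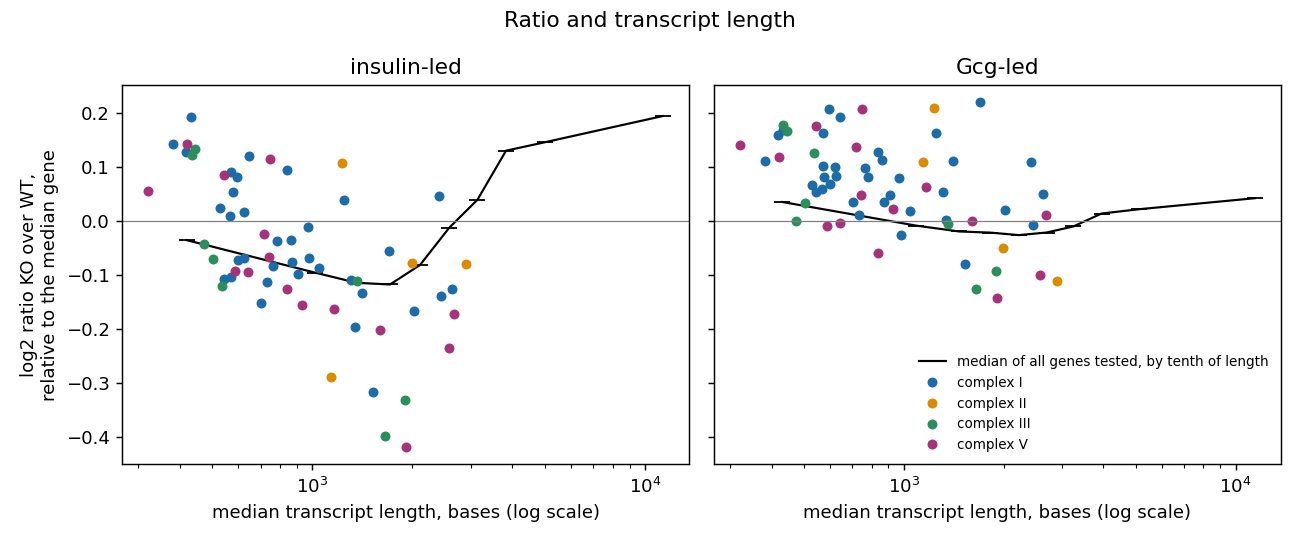
Relative log2 ratio of Npc1-/- over WT against median transcript length on a log scale, for insulin-led (left) and Gcg-led cells (right), with 62 members coloured by complex and the black line joining the medians of all genes tested in 10 groups of length. Members fall with length in both classes, and in insulin-led cells several of the longer members lie far below the line.

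The other classes shared part of this order. In Gcg-led cells 15 members lay below and 48 above the median gene, with a median of 0.06, and 0 members were past 1.2-fold on either side, where 3.93% of genes lay below and 2.94% above by that much. Atp5b was again among the lowest, at -0.14 (-0.18 to -0.10), with Uqcrc1 at -0.12 (-0.22 to -0.03). Sst-led cells had 26 below and 37 above, PP-led cells 28 and 35, endothelial cells 33 and 30 and stellate cells 30 and 33. Members past 1.2-fold numbered 1 below and 2 above in Sst-led (13.8% and 13.1% of all genes), 0 and 1 in PP-led (6.92% and 7.29%), 2 and 2 in endothelial (9.57% and 7.87%) and 5 and 2 in stellate cells (17.4% and 16.2%). In these classes, as in insulin-led cells, the share was near or under that of all genes. Without the cells that had a second hormone at 10% or more of their UMIs, the Sst-led count turned to 35 below and 29 above, and its median from 0.02 to -0.02. Of the 63 members 33 had their lowest ratio in insulin-led cells, against 19.5% of the 3302 genes tested in all 6 classes. This ranking depends on the median gene of each class, which stood highest in insulin-led cells, at 0.08. The share was not taken among genes of like level.

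Ndufv1, Sdha, Uqcrc1, Atp5b and Atp5a1 lay below the median gene in all 6 classes (5 of 63 members, 9.42% of all genes). Atp5b was the member whose interval lay below 0 in each class, with ratios of -0.42, -0.14, -0.24, -0.15, -0.15 and -0.19 from insulin-led to stellate cells in the order used above. The members above in all 6 were Ndufa1, Ndufa2, Ndufa5, Ndufa6, Ndufa7, Ndufb7, Sdhd, Uqcr11, Atp5e, Atp5j2 and Atp5l (11 of 63, 7.66% of all genes), none of them a core subunit of complex I or III. Ndufa1 went from 220 to 316 UMIs in stellate cells, its highest ratio at 0.47 (0.21 to 0.72). Cells of a library share their preparation, so the 6 classes do not repeat the comparison independently.

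**Figure D5:**
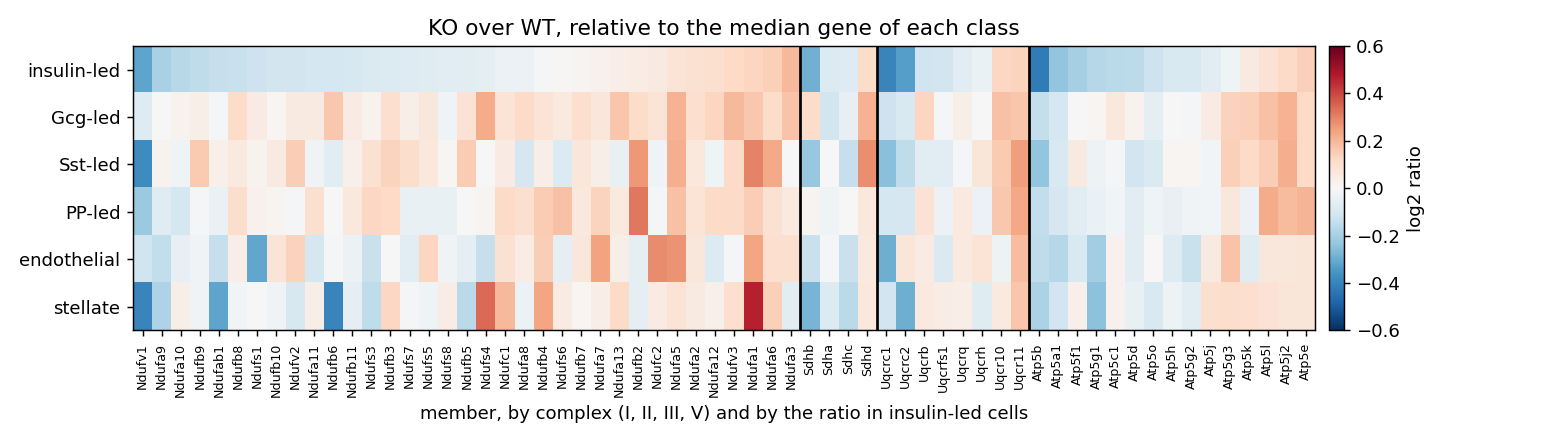
Relative log2 ratio of Npc1-/- over WT for 62 members (columns, by complex and by their order in insulin-led cells) in 6 cell classes (rows). Blue is lower and red higher in Npc1-/-. Atp5b is blue in all 6 rows and Uqcr11 and Atp5e red in all 6.

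Insulin-led and Gcg-led cells differed in sign for some members. In 9 of 63 the interval lay below 0 in insulin-led and above 0 in Gcg-led cells, where 2.19% of 3931 genes did so, and 0 members showed the opposite, where 2.01% of genes did. The 9, named after their values were seen, were Ndufb3, Ndufb5, Ndufb6, Ndufb8, Ndufb11, Ndufs5, Sdhb, Uqcrb and Atp5c1. These sides depend on the median gene of each class, which stood at 0.08 in insulin-led and 0.03 in Gcg-led cells. Intervals are also narrower for genes with more UMIs. In insulin-led cells 41 of the 63 members but only 705 of the 4145 genes tested reached 100 CPM. The shares of 2.19% and 2.01% were not taken among genes of like level. The insulin-led intervals of Ndufb3, Ndufb5, Ndufb6, Ndufb11 and Ndufs5 ended at -0.03, -0.02, -0.04, -0.07 and -0.03. Without the insulin-led centre these intervals would not lie below 0. Uqcrb, a small subunit of complex III, went from 474.9 to 441.4 CPM in insulin-led cells (-0.12, -0.16 to -0.08) and from 357.4 to 396.3 CPM in Gcg-led cells (0.13, 0.07 to 0.19). The difference between the classes was not tested.

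Genes that work beside the complexes were read from fixed lists. In insulin-led cells 10 of 11 tricarboxylic acid cycle genes lay below the median gene, 3 of them by 1.2-fold (7.79% of all genes), with Idh3g at -0.35 (-0.41 to -0.28) and Idh3a at -0.32 (-0.42 to -0.21) as the lowest. All 5 genes for electron donors and carriers lay below, 2 by 1.2-fold, with Cycs, cytochrome c, at -0.19 (-0.26 to -0.13). This list also holds Cyc1, the complex III subunit reported above, which was 1 of these 2. Of 8 assembly factors 7 lay below, 1 by 1.2-fold, a share near that of all genes. The median was -0.20 for the cycle, -0.19 for donors and carriers and -0.08 for assembly factors. Among 13 nuclear genes of complex IV 8 lay below and 5 above, and among 12 mitochondrially encoded genes 6 and 6, with medians of -0.01 and 0.01. In Gcg-led cells the cycle had 9 below and 4 above with 0 past 1.2-fold. The cycle had 11 and 2 in both Sst-led and endothelial cells, 9 and 4 in PP-led and 8 and 5 in stellate cells. In Sst-led cells 4 donors and carriers lay below, 3 of them by 1.2-fold (13.8% of all genes), and 1 above, with a median of -0.27. They had 3 below and 2 above in Gcg-led, 2 and 3 in PP-led, 2 and 4 in endothelial and 4 and 2 in stellate cells. Of the regulators 2 reached 20 CPM in insulin-led cells, where Tfam, the factor of mitochondrial DNA, stood at -0.24 (-0.35 to -0.13) and Yy1 at 0.09 (0.02 to 0.17).

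Between classes, the lists around the complexes did not all follow the members. In endothelial against insulin-led cells 8 of 13 cycle genes were lower and 2 higher in edgeR's test, and 13 of 27 assembly factors were lower and 4 higher, where 38.6% of all genes were lower and 35.7% higher. The share of assembly factors that were lower was thus not far from that of all genes. Of 13 mitochondrially encoded genes 12 were lower, with a median difference of -1.33. Barcodes had been kept by their mitochondrial share, and hormone genes were left out of these totals. Of all UMIs, the median mitochondrial share per cell was 4.31% and 4.55% in insulin-led and 3.37% and 3.39% in endothelial cells. The part of the filter and of the totals in this difference was not tested. Of 8 regulators 4 were higher, among them Esrra (1.15, edgeR adjusted p = 1.1e-06) and Gabpa (1.03, edgeR adjusted p = 4.4e-07), both transcription factors of respiratory genes, and 2 were lower.

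Markers of other cell types moved between the genotypes as well. The 8 B cell markers summed to 37.3 CPM in WT and 4.43 in Npc1-/- insulin-led cells, to 74.6 and 4.64 in Gcg-led, to 57.7 and 1.79 in PP-led and to 59.3 and 4.12 in endothelial cells, but to 5.99 and 7.93 in Sst-led and 5.14 and 0.546 in stellate cells. None of the 8 was at 0 in the WT insulin-led, Gcg-led, PP-led and endothelial sums. The β cell markers summed to 4746 against 3946 CPM in insulin-led cells. Their part in the ratios between genotypes was not tested.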

How the data were processed

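The deposited files held raw UMI counts per gene and barcode, which the authors made with Cell Ranger 3.1.0 on mm10 from 1 library a genotype. Seurat 4.0.3, named in the submitters' processing notes, was not applied to these files. The annotation release is not given in the sources used here. No column of per-sample values was left unused (0).

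Barcodes with over 1000 genes, under 50000 UMIs, haemoglobin transcripts at or below 0.1% and mitochondrial transcripts below 10% were kept. A cell was classed by its leading hormone at 10% or more of its UMIs, or by 3 or more of 8 endothelial or stellate markers. UMIs were summed by class and library. Doublets were kept. Scrublet (scanpy 1.11.5), which would remove 317 and 261 cells, served as an alternative. Ratios between genotypes carry exact conditional binomial 95% intervals. Class sums were tested with edgeR 4.0.16 in R 4.3.3 (TMM, robust quasi-likelihood fit, library as block, Benjamini-Hochberg adjustment, threshold 0.05), with DESeq2 1.42.0 as an alternative. The robust option, which the plan did not name, was set when the fit was tested on simulated data. In that test of endothelial against insulin-led cells over 14075 genes, 31.7% of genes changed by 0.5 on the log2 scale and 75.0% of those changed by 1 were called. Of its calls 7.89% were unchanged genes. It changed 200 genes, far fewer than the 5021 higher and 5427 lower called in the data, so its setting differed. Python 3.11.15 with numpy 2.4.6, scipy 1.17.1, pandas 2.3.3 and matplotlib 3.10.9 did the rest.

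The members and gene lists were chosen with earlier results of these data known. Values in full were given for the subunits the study names, complex II, the c subunit genes, the 2 highest and 2 lowest members of each complex in insulin-led cells and the 3 highest and 3 lowest called members of each class contrast; other genes were named after their values were seen. Values of 1 member are not reported here by name or drawn, though it stays in the counts and sums.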

Additional observations from a re-analysis of the deposited data

Results flagged for a closer look

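Sdhb, the iron-sulfur subunit of complex II, went one way in insulin-led cells and the other in Gcg-led cells. Its relative log2 ratio of Npc1-/- over WT was -0.29 in insulin-led and 0.11 in Gcg-led cells, with counting intervals on opposite sides of 0. Each class had 1 library a genotype, and the difference was not tested.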

How the results depend on the processing

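No paired analysis was possible because each genotype has 1 library, and for the same reason no library could be left out of a comparison between genotypes. Of the alternatives run for counts of members, 207 of 227 stayed within 1.5 times the value reported. A count can stay within this limit while the larger side changes. Without centring and with hormone genes in the totals, insulin-led cells had 29 members below and 34 above, against 43 and 20 as reported. In insulin-led cells the count below the median gene ran from 21 to 50 over 15 alternatives. With only genes of at least 100 CPM kept and centred on their own median, 21 members lay below and 2 by 1.2-fold (8.51% of all genes). With no centring and hormone genes in the totals 3 lay 1.2-fold below (4.29% of all genes), and the counts below fell to 9 in Gcg-led and 10 in PP-led cells. Centred within groups of like length, an alternative chosen after seeing the data as was the removal of stress-gene cells, 3 lay 1.2-fold below (6.85% of all genes). Sdha turned to 0.0005 and Sdhc to 0.0031 without centring and with hormone genes in the totals, and Sdhc to 0.0036 by length. In the class contrasts without the TMM factor, members lower in Gcg-led cells numbered 21, those in Sst-led cells 4 higher and 15 lower, in endothelial cells 2 higher, in stellate cells 9 higher and 34 lower, and 7 were lower in hormone-led than in stromal cells. Ndufs8 in endothelial cells then turned to -0.027. RLE size factors gave 3 higher and 16 lower in Sst-led cells, and DESeq2 12 lower. Without the library block 3 were higher in endothelial cells. The stricter cell filter gave 4 higher and 32 lower in stellate cells and 8 lower in hormone-led than in stromal cells. The cause of these shifts was not tested. Depth limits the smaller classes, where Atp5s rested on 7 to 23 UMIs in stromal cells.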
